A study of Homo sapiens with 8 samples.

Results

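The bitter taste receptor genes are those whose symbols start with TAS2R, and all 20 such rows of the 24598 in the deposited table are described here. The set was drawn up because TAS2R46 and TAS2R30 were much lower after celastrol in these same data, so every value set against celastrol below is a description without a test, while the comparisons of TGFB1, which were not the reason for the choice, were tested. Of the 20 rows, 15 are protein coding and 5 are pseudogenes in GENCODE, whose release 29 lists 30 TAS2R genes. The other 10 were not analysed here.

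Transcripts were measured in CCD-1077Sk, a line of normal human skin fibroblasts used beyond passage 8, after 6 h of treatment. There were 4 groups of 2 libraries. TGFB1 with celastrol received transforming growth factor beta 1, which makes fibroblasts lay down matrix, and 500 nM celastrol, a plant triterpenoid. The TGFB1 group received the cytokine with DMSO. The celastrol group received 500 nM celastrol with bovine serum albumin (BSA) and citric acid. The control group received BSA, citric acid and DMSO. All libraries come from 1 cell line, and no source used here gives the TGFB1 dose. Whether both libraries of a group stem from different cultures is not stated in the labels. The p-values below therefore reflect the spread among these particular libraries, which could be technical.

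TAS2R proteins are receptors with a heptahelical fold that sit in the membrane of taste receptor cells and bind bitter compounds. In those cells they activate the G protein gustducin (GNAT3), which acts through phospholipase C (PLCB2), the inositol trisphosphate receptor ITPR3 and the cation channel TRPM5. Each receptor is encoded by a single coding exon, and the human genes are grouped mostly in clusters on chromosomes 7 and 12. Transcripts of the family have also been described outside the mouth, for example in airway and smooth muscle.

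Total RNA libraries held 20716708 to 42518326 estimated reads assigned to genes. Values are normalized reads, that is, estimated reads divided by the size factor of the library, and they are not scaled by gene length. A value of 0 is compatible with up to 3 reads, or 1.8 to 4.24 normalized reads depending on the library. This floor covers counting error alone, because without molecular identifiers a read is not an independent molecule. All 10 fibroblast markers examined, among them COL1A1, COL1A2 and PDGFRB, reached 10 normalized reads in every library. Of 10 markers of taste and tuft cells, POU2F3, DCLK1 and KRT8 had a row, and the other 7 were not analysed here. In bulk RNA, fewer cells of a type and less RNA per cell cannot be told apart.

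The 20 rows fell into 3 clusters by position, and the clusters differed in what accompanied celastrol. The 13 rows on chromosome 12 were all lower in each of the 4 celastrol libraries than in each of the 4 others. On chromosome 7, TAS2R3 and TAS2R4 were lower as well, TAS2R5 and TAS2R6P overlapped between the groups, and TAS2R62P, TAS2R60 and TAS2R41 were near 0 without celastrol and clearly detected with it. Over all genes tested, 23.0% were lower and 34.4% higher without overlap in the same split, against 15 and 3 of the 20 TAS2R rows. Because celastrol values chose the set, nothing is read from the difference in these shares.

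**Figure D1:**
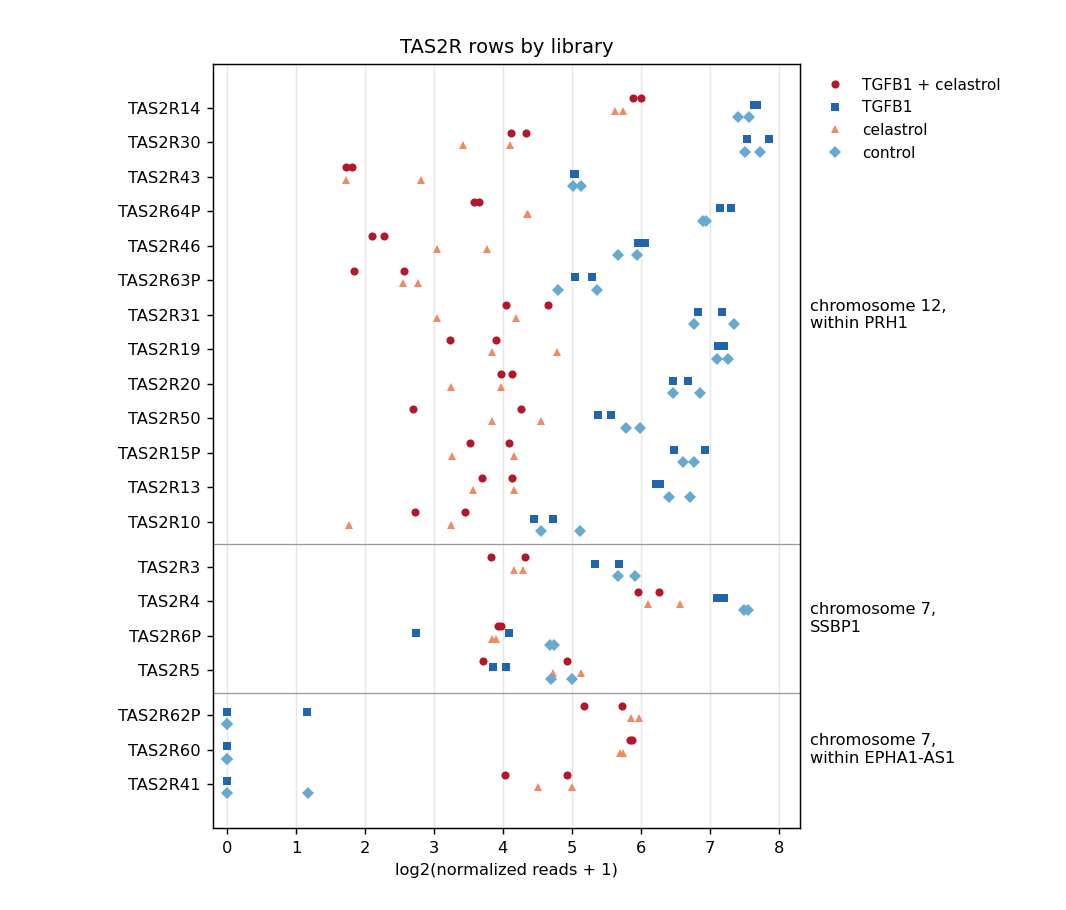
Normalized reads of the 20 TAS2R rows in each library, as log2(normalized reads + 1), with 1 point per library and 2 libraries per group, where points at the same value cover each other. The 13 rows within PRH1 lie to the left in both celastrol groups, and TAS2R62P, TAS2R60 and TAS2R41 lie at or near 0 in the TGFB1 and control groups.

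The chromosome 12 cluster spans chr12:10825317-11171574 (hg38, minus strand) and holds 10 protein coding rows and 3 pseudogenes. Summed over its 13 rows, the level was 187.6 and 198.6 normalized reads with TGFB1 and celastrol, against 1375 and 1225 with TGFB1. It was 217.8 and 174.1 with celastrol, against 1351 and 1209 in control libraries. The celastrol means were thus 14.9% of the TGFB1 mean and 15.3% of the control mean, and the paired groups did not overlap.

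TAS2R46, a broadly tuned receptor that responds to sesquiterpene lactones, lies at chr12:11061365-11062295. It had 3.83 and 3.30 normalized reads with TGFB1 and celastrol, against 65.9 and 61.2 with TGFB1. In celastrol libraries it had 12.6 and 7.27, against 60.9 and 50.01 in control libraries. All 4 celastrol libraries were below all 4 others, and the celastrol mean was 5.61% of the TGFB1 mean and 17.9% of the control mean. These levels rest on few reads, since the values with TGFB1 and celastrol stand for 5.5 and 3.0 estimated reads and those with celastrol for 16.3 and 6.0.

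TAS2R30, known to respond to denatonium, lies at chr12:11132958-11134645 and is the intronic TAS2R row nearest to the start of PRH1. It had 16.4 and 19.3 normalized reads with TGFB1 and celastrol, against 232 and 186 with TGFB1. It had 16.2 and 9.69 with celastrol, against 210 and 181 in control libraries. The celastrol mean was 8.54% of the TGFB1 mean and 6.62% of the control mean, again with no overlap. On the log2(normalized reads + 1) scale, which draws differences of low genes toward 0, the fold change was -3.47 with TGFB1 and -3.85 without for TAS2R30, and -3.82 and -2.41 for TAS2R46.

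The sequences of TAS2R46 and its nearest relatives bear on how well their reads can be told apart. The 4 coding sequences of TAS2R46, TAS2R30, TAS2R43 and TAS2R31 were 91.9% to 94.7% identical in their 6 pairings, whereas TAS2R46 and TAS2R50 shared 83.4%. The first 90 coding bases, read from the minus strand of GRCh38 with the GENCODE transcripts, are given 5′ to 3′ with capitals where a base differs from TAS2R46 at the same position. TAS2R46 covers chr12:11062205-11062294, TAS2R30 chr12:11134155-11134244, TAS2R43 chr12:11092140-11092229, TAS2R31 chr12:11031246-11031335 and TAS2R50 chr12:10986771-10986860.
TAS2R46: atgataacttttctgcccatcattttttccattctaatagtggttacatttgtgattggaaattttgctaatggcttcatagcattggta
TAS2R30: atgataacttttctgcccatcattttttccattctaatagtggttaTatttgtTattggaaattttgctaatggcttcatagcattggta
TAS2R43: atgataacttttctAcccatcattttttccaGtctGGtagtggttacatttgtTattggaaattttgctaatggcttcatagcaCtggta
TAS2R31: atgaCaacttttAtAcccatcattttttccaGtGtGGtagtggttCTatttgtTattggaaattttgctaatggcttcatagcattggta
TAS2R50: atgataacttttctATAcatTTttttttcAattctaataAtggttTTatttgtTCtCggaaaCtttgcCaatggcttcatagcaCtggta
In this stretch TAS2R30 differs from TAS2R46 at 2 bases, TAS2R43 at 6, TAS2R31 at 10 and TAS2R50 at 15. Of all windows of 50 bases in a transcript, 20.1% in TAS2R31, 13% in TAS2R43, 9.31% in TAS2R46 and 1.77% in TAS2R30 also occurred in another TAS2R transcript of the table. The deposited values show the same split, since 8 of the 9 rows with a shared window were whole estimated reads (within 0.02 reads) in at most 3 of 8 libraries. TAS2R14 shared no window and was whole in none. In contrast, 9 of the 20 rows, among them TAS2R10, TAS2R13 and TAS2R3, were whole in all 8. The levels of TAS2R46, TAS2R30, TAS2R43 and TAS2R31 are therefore uncertain as to which of the 4 a read came from, and no source used here says how such reads were divided.

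The other close relatives were low in the same libraries. TAS2R43, which responds to saccharin and aristolochic acid, had 2.52 and 2.30 normalized reads with TGFB1 and celastrol, against 31.7 and 32.0 with TGFB1. It had 2.32 and 6.06 with celastrol, against 33.9 and 31.3 in control libraries. TAS2R31, also a saccharin receptor, averaged 15.5% of the TGFB1 level with both agents and 9.08% of the control level with celastrol alone.

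The rows of chromosome 12 that share little or no sequence with another TAS2R transcript were low in the celastrol libraries as well. TAS2R13 had 11.9 and 16.5 normalized reads with TGFB1 and celastrol, against 73.4 and 76.2 with TGFB1. It had 10.8 and 17.0 with celastrol, against 104 and 83.98 in control libraries. TAS2R13 shared no window of 50 bases with the other rows, and its estimated reads were whole in every library. TAS2R20 shared 0.526% of its windows and averaged 16.5% of the TGFB1 level with both agents and 11.5% of the control level with celastrol alone. TAS2R10, a broadly tuned receptor at the far end of the cluster, had 5.61 and 9.90 normalized reads with TGFB1 and celastrol, against 25.4 and 20.9 with TGFB1. It had 8.503 and 2.42 with celastrol, against 22.5 and 33.6 in control libraries.

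The 3 pseudogenes of the cluster, which encode no receptor, were low with celastrol as well. TAS2R64P had 11.6 and 11.01 normalized reads with TGFB1 and celastrol, against 157 and 140 with TGFB1. It had 19.6 and 19.4 with celastrol, against 123 and 119 in control libraries. TAS2R15P averaged 12.7% of the TGFB1 level with both agents and 12.5% of the control level with celastrol, and TAS2R63P 10.7% and 15.9%. Across the 13 rows the percentages ran between 5.61% and 33.5% with TGFB1 and between 6.62% and 30.6% without it. The median log2 fold change of the cluster was -2.90 with TGFB1, with a range of -3.82 to -1.502, and -2.70 without it, with a range of -3.85 to -1.69. Over all genes tested the medians were 0.12 and 0.08. These low levels rest on 2 to 82.6 estimated reads per row and library with celastrol, against 17 to 315.7 without it.

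Per kilobase of exonic length, the rows of chromosome 12 differed among themselves in level. In control libraries the highest were TAS2R19 at 144 normalized reads per kb, TAS2R31 at 132, TAS2R30 at 116 and TAS2R15P at 110. The lowest were TAS2R43 at 31.8 and TAS2R10 at 26.9 normalized reads per kb. TAS2R19 was long listed without a known agonist. The 2 control libraries of TAS2R31, at 162 and 108 normalized reads, spread more widely than the gaps between the means of these 4 neighbours.

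The 13 rows all lie inside PRH1, a gene for an acidic proline-rich protein of saliva that the table places at chr12:10824960-11171609 on the same minus strand. Of them, 12 overlap no PRH1 exon of GENCODE release 29 and so lie in its introns. The TAS2R14 row is the exception, since it spans chr12:10937408-11171574, reaches almost to the PRH1 start and overlaps PRH1 exons, so reads of the overlapping exons cannot be assigned to 1 of the genes from these values. PRH1 itself had 77.7 and 74.8 normalized reads with TGFB1 and celastrol, against 204 and 214 with TGFB1. It had 83.7 and 49.9 with celastrol, against 193 and 205 in control libraries. The PRH1 means with celastrol were 36.4% of the TGFB1 mean and 33.6% of the control mean, and its groups did not overlap.

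TAS2R14, a broadly tuned bitter receptor, was closer to PRH1 than to TAS2R46 in the size of its difference. It had 57.9 and 63.3 normalized reads with TGFB1 and celastrol, against 198 and 204 with TGFB1. It had 52.3 and 48.2 with celastrol, against 168 and 189 in control libraries. Its celastrol means were 30.2% and 28.1% of those without celastrol.

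**Figure D2:**
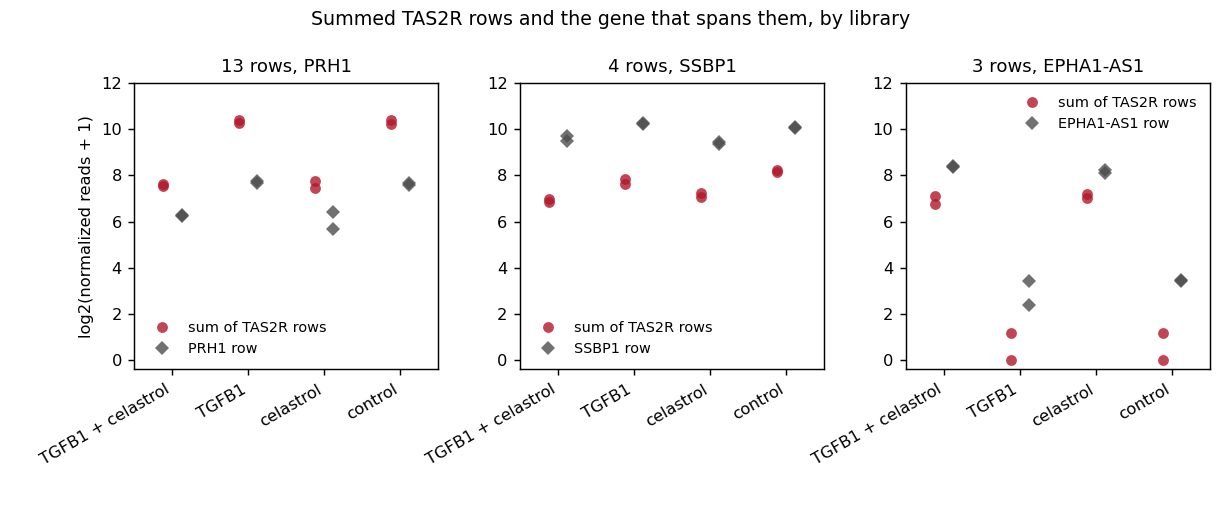
Summed normalized reads of the TAS2R rows of each cluster (circles) and of the gene that spans or adjoins them (diamonds), as log2(normalized reads + 1), with 1 point per library and 2 libraries per group. The summed TAS2R rows and the spanning gene are both lower with celastrol for PRH1 and SSBP1, and both higher with celastrol for EPHA1-AS1.

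Per kilobase of exons, PRH1 had 24.3 normalized reads with TGFB1 and celastrol and 66.6 with TGFB1, and 21.3 with celastrol and 63.2 in control libraries. The TAS2R rows inside it ranged from 2.34 to 25.8 normalized reads per kb with TGFB1 and celastrol, against 22.2 to 142 with TGFB1. The 25.8 belongs to TAS2R14, which overlaps PRH1 exons. In the libraries without celastrol, then, the intronic TAS2R rows stood at levels per kb on both sides of that of the PRH1 exons. With celastrol all intronic TAS2R rows lay below PRH1. The highest were TAS2R31 at 19.4 per kb with TGFB1 and celastrol, and TAS2R19 at 19.9 with celastrol. Whether counting used strand is not stated, so reads from the plus strand could be included.

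Among 6 other rows inside PRH1 that are no bitter receptors, 5 were lower without overlap in all 4 celastrol libraries, where 23.0% of all genes tested were. Of these 5, AC134349.1 and AC134349.2 lie within the span of the TAS2R14 row. The sixth, AC018630.4, overlapped between the groups, with 34.2 and 6.31 normalized reads with TGFB1 and celastrol, against 45.5 and 25.8 with TGFB1. It had 37.4 and 23.8 with celastrol, against 63.2 and 21.5 in control libraries. AC134349.2, a pseudogene annotated between TAS2R30 and the PRH1 start, averaged 7.69% of the TGFB1 level with both agents and 7.58% of the control level with celastrol. PRR4, a proline-rich protein gene near the far end of PRH1, averaged 38.6% and 29.6%. SMIM10L1, which starts beside the PRH1 start and runs on the plus strand, had 456 and 529 normalized reads with TGFB1 and celastrol, against 835 and 771 with TGFB1. It had 539 and 564 with celastrol, against 683 and 680 in control libraries, so its celastrol means were 61.4% and 80.9% of those without.

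The size of the difference was graded along PRH1 in the presence of TGFB1. TAS2R30, TAS2R43, TAS2R64P and TAS2R46 lie 37.0, 79.3, 92.4 and 109.3 kb from the PRH1 start, and TAS2R15P, TAS2R13 and TAS2R10 lie 206.3, 262.0 and 345.2 kb from it. Over the 12 intronic rows, distance and the log2 fold change of TGFB1 with celastrol over TGFB1 had a Spearman rho of 0.776 and a Pearson r of 0.822. For celastrol over control the same measures were 0.301 and 0.404. The mean level and the log2 fold change had a rho of -0.462 with TGFB1 and -0.692 without it. These are descriptions over rows that share libraries, a transcription unit and, for several, sequence.

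**Figure D3:**
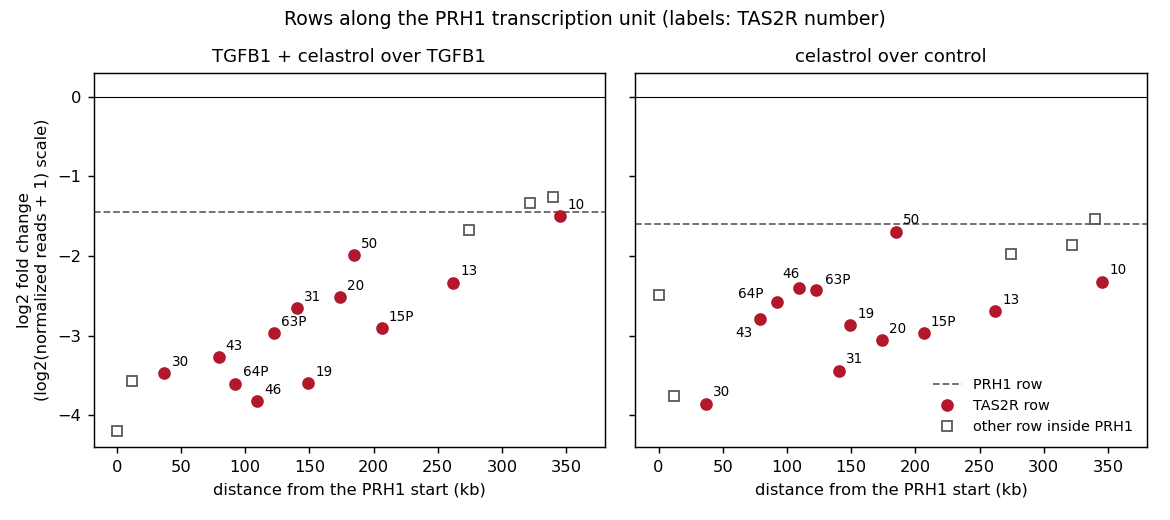
Log2 fold change of each intronic TAS2R row (filled circles, labelled by receptor number) and of other rows inside PRH1 except the long, overlapping AC018630.4 row (open squares) against distance from the PRH1 start in kb, on the log2(normalized reads + 1) scale, with the PRH1 row as a dashed line. In the TGFB1 pair the TAS2R rows run from -3.82 for TAS2R46 to -1.502 for TAS2R10, the farthest TAS2R row. The open squares of that pair run from -4.19 for AC134349.1 to -1.26 for AC006518.1. In the other pair TAS2R30 is lowest at -3.85.

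The starts of the genes differ in sequence. Promoter windows of 300 bases, mostly upstream of an annotated start, were available from RefSeq (GRCh38.p14) for 12 of the 20 rows. The windows at the PRH1 start and at the TAS2R30 start are shown because both genes were lower with celastrol, though to different degrees. They are written 5′ to 3′ on the minus strand with CG dinucleotides in capitals, for PRH1 at chr12:11171562-11171861 and for TAS2R30 at chr12:11134595-11134894.
PRH1: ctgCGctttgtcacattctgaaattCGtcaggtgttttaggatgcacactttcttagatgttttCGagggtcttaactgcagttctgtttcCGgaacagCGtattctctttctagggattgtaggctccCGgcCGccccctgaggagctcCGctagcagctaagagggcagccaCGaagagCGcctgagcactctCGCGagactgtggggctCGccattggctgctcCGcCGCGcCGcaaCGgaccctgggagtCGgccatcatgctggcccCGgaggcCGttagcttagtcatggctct
TAS2R30: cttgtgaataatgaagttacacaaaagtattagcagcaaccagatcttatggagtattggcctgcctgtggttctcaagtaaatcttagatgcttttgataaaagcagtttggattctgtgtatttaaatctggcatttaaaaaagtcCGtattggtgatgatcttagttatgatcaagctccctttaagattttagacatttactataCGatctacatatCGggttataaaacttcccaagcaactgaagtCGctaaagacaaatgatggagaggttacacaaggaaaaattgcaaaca
The PRH1 window holds 21 CG dinucleotides and 58.0% G and C, and the TAS2R30 window 4 and 35%. A second annotated PRH1 start, at chr12:10884206-10884505, has a window with 3 CG dinucleotides, 48.0% G and C and 2 TATAAA matches. The 12 TAS2R windows hold 0 to 5 CG dinucleotides, whereas the median over 35116 promoter windows was 14. The TATAAA motif, searched on both strands, was found in 5 of the 12 windows and in 11.5% of all. A match or its absence is a description of these letters only.

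The SSBP1 cluster holds 4 rows at chr7:141764097-141791368 on the plus strand. SSBP1, the mitochondrial single-stranded DNA-binding protein, spans TAS2R3 and TAS2R4 in introns, and TAS2R6P overlaps its last exon. TAS2R5 starts 2.29 kb past its end. TAS2R3, known to respond to chloroquine, had 18.9 and 13.2 normalized reads with TGFB1 and celastrol, against 39.5 and 50.4 with TGFB1. It had 18.6 and 17.0 with celastrol, against 50.03 and 59.4 in control libraries. The groups did not overlap in either pair, and the celastrol means were 35.7% and 32.5% of those without.

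TAS2R4, a receptor for quinine and denatonium, was likewise lower. It had 61.0 and 75.9 normalized reads with TGFB1 and celastrol, against 137 and 146 with TGFB1. It had 94.3 and 67.8 with celastrol, against 179 and 187 in control libraries, and the means with celastrol were 48.3% and 44.4% of those without. SSBP1 averaged 784 ± 78.2 normalized reads with TGFB1 and celastrol and 1225 ± 10.8 with TGFB1, and 672 ± 29.1 with celastrol and 1075 ± 21.2 in control libraries (SD, n = 2 each).

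The outer rows of this cluster differed from TAS2R3 and TAS2R4. TAS2R5 had 29.4 and 12.1 normalized reads with TGFB1 and celastrol, against 15.5 and 13.5 with TGFB1. It had 25.5 and 33.9 with celastrol, against 25.0 and 31.2 in control libraries, so the groups overlapped in both pairs. TAS2R6P, a pseudogene, had 14.7 and 14.3 with TGFB1 and celastrol, against 5.65 and 16.0 with TGFB1. It had 13.9 and 13.3 with celastrol, against 25.7 and 24.6 in control libraries, so it was lower in the pair without TGFB1 and overlapped in the pair with it.

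The third cluster lies at chr7:143437034-143478797 on the plus strand, inside introns of EPHA1-AS1, a long noncoding RNA antisense to the receptor tyrosine kinase gene EPHA1. TAS2R60, long without a known agonist, had 57.5 and 56.1 normalized reads with TGFB1 and celastrol and was at 0 in both TGFB1 libraries. It had 52.6 and 50.9 with celastrol and was at 0 in both control libraries. Against the floor of 3 reads per library, TAS2R60 was at least 14.3-fold higher with TGFB1 and celastrol than with TGFB1, and at least 18.6-fold higher with celastrol than in control libraries. The 4 celastrol libraries lay close together and the 4 others had no read.

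TAS2R62P, a pseudogene, had 51.9 and 35.2 normalized reads with TGFB1 and celastrol, against 0 and 1.23 with TGFB1. It had 61.8 and 56.9 with celastrol and was at 0 in both control libraries. The ratio with TGFB1 was 69.1, with a counting interval of 12.1 to 2754, because the TGFB1 libraries held 1 read in all, and without TGFB1 the level was at least 21.4-fold higher. TAS2R41, known to respond to chloramphenicol, had 29.4 and 15.4 with TGFB1 and celastrol and was at 0 in both TGFB1 libraries. It had 30.9 and 21.8 with celastrol, against 1.25 and 0 in control libraries. TAS2R41 was at least 5.66-fold higher with both agents than with TGFB1, and its ratio without TGFB1 was 67.5, with a counting interval of 11.7 to 2712.

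EPHA1-AS1 was high in the same libraries. It had 329 and 336 normalized reads with TGFB1 and celastrol, against 4.24 and 9.83 with TGFB1. It had 301 and 277 with celastrol, against 10.0 and 9.60 in control libraries. Per kb of exons it stood at 62.5 with TGFB1 and celastrol and at 54.4 with celastrol, and TAS2R60 at 59.4 and 54.0 in the same groups, so that intronic row lay close to its host's level per kb. TAS2R62P stood at 46.3 and 63.2 per kb in these groups and TAS2R41, the lowest of the 3, at 24.3 and 28.5. The EPHA1-AS1 window of RefSeq holds 1 CG dinucleotide and that of TAS2R60 holds 3.

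The 3 markers of endothelial cells, PECAM1, VWF and TEK, of 5 listed had a row, and their summed level was 345 to 456 normalized reads with TGFB1 and celastrol and 51.5 to 90.4 with TGFB1. It was 347 to 360 with celastrol and 51.0 to 92.5 in control libraries. The 3 immune rows of 5, PTPRC, CD14 and LYZ, summed to 79.2 to 92.4 with TGFB1 and celastrol and 12.7 to 18.4 with TGFB1. They summed to 63.0 to 71.1 with celastrol and 11.3 to 22.2 in control libraries. These marker sums were higher in the same libraries as the EPHA1-AS1 cluster, and their part in its levels was not tested. The fibroblast sum was 388887 to 450202 with TGFB1 and celastrol and 560815 to 679944 with TGFB1, and it overlapped at 408044 to 482406 with celastrol and 480910 to 503553 in control libraries. The 3 melanocyte rows of 5 (PMEL, MLANA and MITF) summed to 1270 to 1312 with TGFB1 and celastrol and 222 to 236 with TGFB1, and to 1313 to 1365 with celastrol and 1034 to 1074 in control libraries. The 5 smooth muscle rows of 5 summed to 3369 to 4277 with TGFB1 and celastrol and 7098 to 7694 with TGFB1, and to 3122 to 4183 with celastrol and 3493 to 4305 in control libraries. The 3 taste and tuft cell rows summed to 666 to 682 with TGFB1 and celastrol and 532 to 553 with TGFB1, and to 722 to 802 with celastrol and 522 to 597 in control libraries. The 2 keratinocyte rows of 5, KRT10 and TP63, overlapped between groups in sum, and TP63 was at 0 in all libraries without celastrol. All 10 fibroblast rows and 4 of the 5 smooth muscle rows reached 10 normalized reads in every library. In the other lists only 2 endothelial, 0 immune, 1 melanocyte, 2 taste and tuft cell and 1 keratinocyte row did. A sum can therefore rest mainly on 1 gene and is no measure of a cell type. The part of these markers in the TAS2R levels was not tested either.

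A low-value filter of 10 normalized reads in 2 libraries passed all 20 rows, but for different reasons. Both with and without celastrol, 13 rows reached it. The 3 rows of the EPHA1-AS1 cluster reached it only with celastrol, and 4 rows of the set reached it only without. Within the pairs, 15 rows were lower and 3 higher without overlap with TGFB1, where 34.8% and 45.9% of all genes tested were. In the pair without TGFB1, 16 were lower and 3 higher, where 33.8% and 44.5% of all genes were. The median log2 fold change over the 20 rows was -2.16 with TGFB1 and -2.36 without. Olfactory receptors, another family with single coding exons, had 13 of 23 rows tested, of which 8 were higher and 2 lower in all 4 celastrol libraries, where 34.4% and 23.0% of all genes were. Their median log2 fold changes were 1.64 with TGFB1 and 2.08 without. How many of these 13 rows passed the filter only through the celastrol libraries was not counted. Their counts and medians can therefore lean toward rows that are high with celastrol, and nothing is read from them.

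TGFB1 against control was not the comparison that led to the choice of genes, although its libraries are the ones celastrol was set against. In it, none of the 20 rows passed an adjusted p of 0.05 in the limma fit over all genes, where 23.5% of the 22866 genes tested did, 12.8% higher and 10.6% lower. The 3 rows of the EPHA1-AS1 cluster, at 0 or 1 read in each of these libraries, could not have been called, which leaves 17. In that comparison 1 row had an unadjusted limma p under 0.05, where 8117 of the 22866 genes tested did. TAS2R6P had 5.65 and 16.0 normalized reads with TGFB1, against 25.7 and 24.6 in control libraries, a log2 fold change of -1.30 ± 0.45 (SE) with an adjusted p of 0.0707 from limma. The lower TGFB1 library lay far below both control libraries and the other closer to them. The TGFB1 values of TAS2R6P stand for only 4 and 13 estimated reads. The row also overlaps the last exon of SSBP1, so reads of the 2 genes could be mixed. TAS2R6P was called with a limma adjusted p of 0.0477 with a pseudocount of 5, 0.0336 with values scaled to a common total and 0.00939 without TGFB1 replicate 2. Without TGFB1 replicate 1 its log2 fold change was -0.62 with a limma adjusted p of 0.265, and with only the libraries compared in the fit the adjusted p was 0.275. TAS2R5 had a log2 fold change of -0.90 ± 0.43 with a limma adjusted p of 0.172, and TAS2R4 of -0.37 ± 0.21 with one of 0.248. In the chromosome 12 cluster the log2 fold changes ran between -0.41 and 0.30, and the smallest limma adjusted p was 0.404.

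In the presence of celastrol, TGFB1 with celastrol was set against celastrol alone. None of the 20 rows passed in the limma fit, where 0.00875% of all genes did, and the smallest adjusted p was 1. At an unadjusted limma p under 0.05 there were 2 rows, beside 868 of the 22866 genes tested. The 2 rows were TAS2R64P with a log2 fold change of -0.74 ± 0.23 and TAS2R46 with -1.22 ± 0.35. For TAS2R46 and TAS2R30 this comparison is a description, since their low values in celastrol libraries are why they were chosen. The interaction, which is the celastrol difference with TGFB1 minus that without it, is built from the differences that led to the choice and is given as a description. None of the 20 rows passed in the limma fit, where 11.3% of all genes did. An unadjusted limma p under 0.05 was found for 2 of the 20 rows and for 5896 of the 22866 genes tested. TAS2R64P had the smallest adjusted p, 0.0786, with an interaction of -1.03 ± 0.32 on the log2 scale. The adjusted p of TAS2R64P was 0.0186 with no variance trend in limma, and TAS2R6P was called without TGFB1 replicate 2 (0.0341). For TAS2R46 the interaction was -1.42 ± 0.49.

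**Figure D4:**
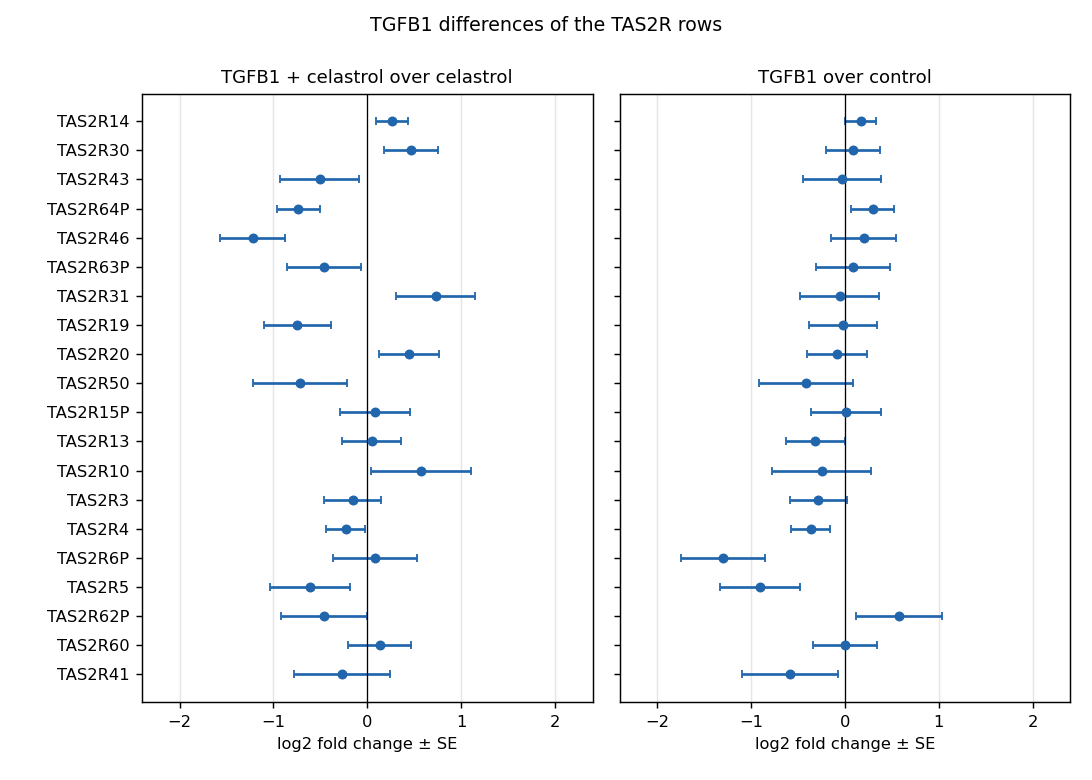
Log2 fold change with its standard error (bars) of the 20 TAS2R rows for TGFB1 with celastrol over celastrol (left) and TGFB1 over control (right), from limma on log2(normalized reads + 1) with 2 libraries per group. No row passed an adjusted p of 0.05 in either comparison, and TAS2R46 on the left and TAS2R6P on the right lie farthest from 0.

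Genes of the pathway that bitter receptors use in taste cells were examined as a list. Of 29 listed genes 18 had a row and 17 passed the filter, and GNAT3, PLCB2 and TRPM5 were not analysed here. With TGFB1 against control, 3 of the 17 rose and 1 fell, beside 12.8% and 10.6% of all genes and 23.5% in either direction, so the share called was near the background. GNAI1, a G protein alpha subunit that inhibits adenylyl cyclase, fell by 1.25 on the log2 scale with a limma adjusted p of 3.43e-06. ITPR3, the calcium release channel of taste cells, rose by 0.52 with a limma adjusted p of 0.00998. GNB1, a G protein beta subunit, rose by 0.26 with one of 0.00808, and the receptor kinase GRK2 by 0.23 with one of 0.0443. The rises of GNB1 and GRK2 depend on the scaling, since a common total put the median of all genes at -0.21 in this comparison. The size of the ITPR3 rise depends on it too, and whether ITPR3 was called after such scaling is not given here. Under that scaling 1421 genes were called higher and 5402 lower, against 2937 and 2427 in the main fit. GNAI1 also had an interaction of 1.26 with a limma adjusted p of 6.96e-05, the only interaction called in the list.

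By the root mean square distance of log2 profiles over the 8 libraries, the row most like TAS2R46 was AC114980.1 at 0.248, then ACTG1P3, a pseudogene related to gamma actin, at 0.323 and AC015799.1 at 0.345. Those most like TAS2R30 were AC023090.2 at 0.171, CARMN, a long noncoding RNA of cardiac and smooth muscle cells, at 0.229 and AC134349.2 at 0.253. CARMN had 640 and 532 normalized reads with TGFB1 and celastrol, against 6624 and 7069 with TGFB1. Among the 22866 genes tested, with the TAS2R rows left out, PRH1 ranked 470th for TAS2R46 and 461st for TAS2R30.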

How the data were processed

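RNA-seq values were analysed for 8 libraries in 4 groups of 2, with the replicate numbers of the titles (a second label calls celastrol replicate 2 number 3). The deposited signal values are 1 per gene and library. The tools named per the submitters' processing notes are STAR 2.7.3a, DESeq2 and Partek 10.0.22, with hg38 as the build. What each tool did, the annotation and the use of strand in counting were given in none of the sources used here. Between 74.5% and 75.8% of the deposited signal values below 200 reads were whole multiples of a step per library, within 0.02 reads, so the signal is taken to be estimated reads over 1 size factor per library, the step gives the depth, and no count model was fitted.

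Values were tested as log2(value + 1) with limma 3.58.1 in R 4.3.3 (variance trend, 1 mean per group, 8 libraries, 4 residual degrees of freedom, two-sided). The 22866 of 24598 genes that reached 10 normalized reads in 2 or more libraries were tested, with Benjamini-Hochberg adjustment over them and calls at 0.05. The script was checked on simulated data. Exons, coding sequences and transcripts came from GENCODE release 29; both ends of 18 of the 20 TAS2R rows match it, and the table's end lies 1 base beyond GENCODE's. Promoter windows came from RefSeq.

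The genes and lists were chosen with earlier results of these data known. Named were all TAS2R rows, up to 12 rows within 100 kb of them, up to 6 members of a bitter signalling list, and the 3 rows most like TAS2R46 and TAS2R30. Alternatives were another pseudocount, filter and scaling, no variance trend, only the libraries compared, a replicate block and leaving out each library.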

Additional observations from a re-analysis of the deposited data

How the results depend on the processing

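With 2 libraries per group and 4 residual degrees of freedom, the tests resolve only differences well above the spread between libraries, and most celastrol values on chromosome 12 rest on few reads. With TGFB1 against control the count of TAS2R rows called was 1 with a pseudocount of 5 (TAS2R6P, limma adjusted p = 0.0477) and 1 after scaling to a common total (0.0336), and it ran between 0 and 1 when 1 library was left out, with TAS2R6P called without TGFB1 replicate 2 (0.00939). The interaction called 1 row with no variance trend (TAS2R64P, limma adjusted p = 0.0186) and 0 to 1 with 1 library left out, TAS2R6P being called without TGFB1 replicate 2 (0.0341). TGFB1 with celastrol against celastrol called 0 under each of 15 alternatives. The cause of these shifts was not tested.

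The median log2 fold change of the 20 rows with TGFB1 was -1.86 with a pseudocount of 5, -2.01 with a common total, -2.27 after centring on the median, and -2.23 to -2.13 with 1 library left out. Without TGFB1 it was -1.81 with a pseudocount of 5 and -2.36 to -1.90 with 1 library left out. Of the alternative values of these 5 summaries, 57 lay within the spread between libraries or kept the count, and 11 did not. A common total moved the median of all genes by -0.21 with TGFB1 against control and put it at 0.28 for celastrol with TGFB1, against 0.12. All 13 rows inside PRH1 stayed below 0 and all 3 inside EPHA1-AS1 above 0 under every alternative run, whereas TAS2R5 with celastrol against control went below 0 with a common total, without celastrol replicate 2 and without control replicate 1. The replicate block called 0 rows in the 3 comparisons, with smallest limma adjusted p of 0.0602, 0.754 and 0.0815. Deviations of libraries with the same number correlated at 0.05 to 0.08, so the numbers are not shown to pair them.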

Other observations

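The link between a TAS2R row and the gene that spans it was set beside all other rows nested in a longer gene, a comparison chosen after the values were seen and given without a test. Of 1846 nested pairs on the same strand, 65.3% differed in the same direction as the spanning gene for celastrol with TGFB1 and 64.1% for celastrol without it. Of 1562 pairs on opposite strands, 51.3% and 52.1% did. Where the spanning gene was lower by 2-fold or more, 84.8% of nested rows on the same strand were lower with TGFB1 and 88.6% without it, beside 61.5% and 62.1% of all same-strand nested rows. On the opposite strand 27.3% and 40.4% were lower, beside 32.9% and 31.6% of all. Where the spanning gene was higher by 2-fold or more, 74.7% and 75.9% of nested rows on the same strand were higher. Over all same-strand pairs most nested rows were instead lower, at the 61.5% and 62.1% given above. On the opposite strand 66.3% and 68.2% were higher. Only 32.9% and 31.6% of all opposite-strand rows were lower, so those shares lay near the ones over all such pairs. The pairs share libraries and can share reads where exons overlap.

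Next to the SSBP1 cluster, WEE2-AS1, a noncoding RNA that runs on the minus strand from the SSBP1 start, was higher in the celastrol libraries, in which SSBP1, TAS2R3 and TAS2R4 were lower. It had 25.9 and 33.0 normalized reads with TGFB1 and celastrol, against 1.41 and 1.23 with TGFB1. It had 20.1 and 25.4 with celastrol, against 1.25 and 3.60 in control libraries.

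Beyond the EPHA1-AS1 cluster, CTAGE15 on the same strand had 46.4 and 35.2 normalized reads with TGFB1 and celastrol, against 1.25 and 12.9 with TGFB1. It had 54.5 and 46.7 with celastrol, against 15.8 and 8.33 in control libraries. FAM131B, which lies before the cluster on the opposite strand, had 238 and 226 with TGFB1 and celastrol, against 178 and 191 with TGFB1. It had 216 and 237 with celastrol, against 115 and 124 in control libraries. PAICSP5, a pseudogene nearer to the cluster than CTAGE15, averaged 93% of the TGFB1 level with both agents and 87.1% of the control level with celastrol.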
